A study of Mus musculus with 4 samples.

Results

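Low-numbered microRNA genes are those whose symbol is Mir followed by a number from 1 up to that of Mir299a, together with the let-7 genes (Mirlet7). They were taken from the transcript clusters to which the array's annotation gives exactly 1 gene symbol, leaving out host gene transcripts, and came to 152 of the 29860 genes tested. They lie on 154 clusters, because Mir151 and Mir224 each have a further cluster with identical values, which was counted once. A further 49 clusters carry such a symbol together with another gene and were left out, among them those of Mir21a, Mir10a, Mir223, Mir126a and most of the Mir17 cluster. The last gene inside the limit, Mir299a, differed by 0.165 (SE 0.080) between the groups, and the first measured outside it, Mir301 and Mir301b differed by 0.03 (SE 0.10) and 0.195 (SE 0.11) on the log2 scale. Whether the members are conserved between species was not examined.

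The cells were splenic CD4 T cells of mice aged 7 to 8 weeks, sorted for the green fluorescence of a Foxp3-driven EGFP-Cre transgene that every animal carried (B6-Tg(Foxp3EGFP-cre)1cJbs/J, on C57BL/6). They are regulatory T cells, which restrain immune responses. The 2 arrays labelled WT (replicates 1 and 3) had the transgene alone. In the 2 arrays labelled KO (replicates 1 and 2) it was combined with BMI1-flox, so that the Polycomb gene Bmi1 would be deleted where Foxp3 is expressed. Sample titles and the treatment field call the cells unstimulated and untreated, whereas the text of the series describes stimulation with antibodies to CD3 and CD28 for 24 h. Which of these applies cannot be read from the labels. No label ties a sample to its own animal, and the p-values therefore reflect the spread among these 4 samples, which may be technical. In bulk samples, fewer cells of a type and less RNA per cell cannot be told apart.

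Bmi1 itself read 8.98 in both arrays labelled WT and 9.58 and 9.91 in the arrays labelled KO. It was thus higher in both arrays labelled KO, by 0.765 (SE 0.16, adjusted p 0.289), the opposite of the label. Which exons its cluster covers is not given in the sources used here. A cluster that lies beyond the floxed exons would not test the deletion, so the directions below follow the labels alone. Of 7 regulatory T cell markers, 6 were measured on a cluster of their own, and all 6 (Il2ra, Ctla4, Ikzf2, Cd3e, Cd4 and Tnfrsf18) lay above the median gene in every array. Foxp3 was not among them. The 4 myeloid markers lay below the median gene in every array. Some markers of other cell types did not: Cd8b1 (CD8 T cells) read 9.74 and 10.78 in the arrays labelled WT and 10.71 and 11.26 in those labelled KO, Pecam1 (endothelium) read 10.53 to 10.78, Cd79b (B cells) 7.42 to 7.91 and Epcam (epithelium) 6.37 to 6.54. Cd8a lay below the median gene in every array. The median gene of each array was between 5.0 and 5.06.

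A microRNA gene is transcribed into a long primary RNA, from which Drosha cuts a hairpin. The hairpin leaves the nucleus through Xpo5, Dicer1 trims it, and one strand enters an Argonaute protein. The seed, bases 2 to 8 from the 5′ end, does most of the pairing with target messenger RNAs, so genes with one seed are grouped into families. Regulatory T cells need this pathway, and miR-155, miR-146a, miR-142, miR-181 and miR-15/16 are among the microRNAs studied most in them. The table does not say whether a cluster's signal came from the primary transcript, the hairpin or the mature strand.

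Mature sequences from RefSeq (GRCm38.p6) are shown for the members on which the results turn, 5′ to 3′, with the seed in capitals. The first set shares the seed AUUGCAC, and its genes include Mir32, the member of smallest p, and relatives that did not share its difference.
mmu-miR-32-5p: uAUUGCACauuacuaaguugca
mmu-miR-92a-3p: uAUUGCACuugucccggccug
mmu-miR-92b-3p: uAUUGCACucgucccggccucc

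The next set shares the seed AGCAGCA, and of its genes only Mir15a had separate groups.
mmu-miR-15a-5p: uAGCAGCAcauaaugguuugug
mmu-miR-15b-5p: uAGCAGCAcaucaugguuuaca
mmu-miR-16-5p: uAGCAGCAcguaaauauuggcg

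The microRNAs best known from T cells whose arrays separated between the groups are shown next, with both strands of the Mir142 hairpin, since each of them is in use in blood cells.
mmu-miR-142a-5p: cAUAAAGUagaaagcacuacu
mmu-miR-142a-3p: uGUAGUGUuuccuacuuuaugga
mmu-miR-155-5p: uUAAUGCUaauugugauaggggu
mmu-miR-146a-5p: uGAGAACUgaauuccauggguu
mmu-miR-181a-5p: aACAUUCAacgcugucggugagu
mmu-miR-181b-5p: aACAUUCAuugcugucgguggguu

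The last set holds members of the X-linked relative of the Mir17 cluster, the Mir135a and Mir26 families and let-7.
mmu-miR-20b-5p: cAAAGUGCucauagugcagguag
mmu-miR-18b-5p: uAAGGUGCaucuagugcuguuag
mmu-miR-19b-3p: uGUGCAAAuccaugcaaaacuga
mmu-miR-135a-5p: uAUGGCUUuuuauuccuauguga
mmu-miR-26a-5p: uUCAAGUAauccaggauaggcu
mmu-miR-26b-5p: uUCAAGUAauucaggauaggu
mmu-let-7a-5p: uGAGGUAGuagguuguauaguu

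Most low-numbered microRNA genes read low on these arrays and differed little between the genotypes. Of the 152, 94 lay below the median gene in all 4 arrays and 38 (25%) lay above it in all 4, against 47.56% of all genes and 48.82% of the 424 microRNA genes with numbers above that limit. The median member read 4.18, and member means ran from 2.55 to 9.0. The table carries no detection call, so a low value cannot be told from background, and the difference of a gene that reads low can understate a change. In all, 98 members (64.47%) differed by at most 0.2 on the log2 scale in either direction, against 74.81% of all genes. The median size of the difference was 0.1225 over the members and 0.105 over all genes. Differences of at least 0.5 were seen in 16 of the 152 members and in 1276 of the 29860 genes.

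No member passed a Benjamini-Hochberg adjusted p under 0.05 in limma, the test used throughout, against 2 of 29860 genes (0.0067%). At an unadjusted p under 0.05, 10 members (6.58%) read higher in the KO group, against 6.45% of all genes. In the other direction 11 members (7.24%) were lower, against 3.81%. With each array centred on its median these counts became 13 higher and 9 lower, so the higher members made up 59.1% of them in place of 47.6%. The shares of all genes shifted upward as well on centring, to 7.52% higher and 2.95% lower. Both arrays labelled KO lay above both arrays labelled WT for 19 members (12.5%), against 21.1% of all genes, and below them for 31 members (20.4%), against 17.5%. The median difference, KO minus WT, was -0.03 over the members, 0.005 over all genes and -0.055 over the microRNA genes with higher numbers. Of those higher-numbered genes, 13 (3.07%) were higher and 49 (11.6%) lower at an unadjusted p under 0.05. By sign alone, 64 members were higher and 88 lower, which centring turned into 72 and 79, with 1 at 0. Single members are therefore described by their array values, and none is called changed.

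**Figure D1:**
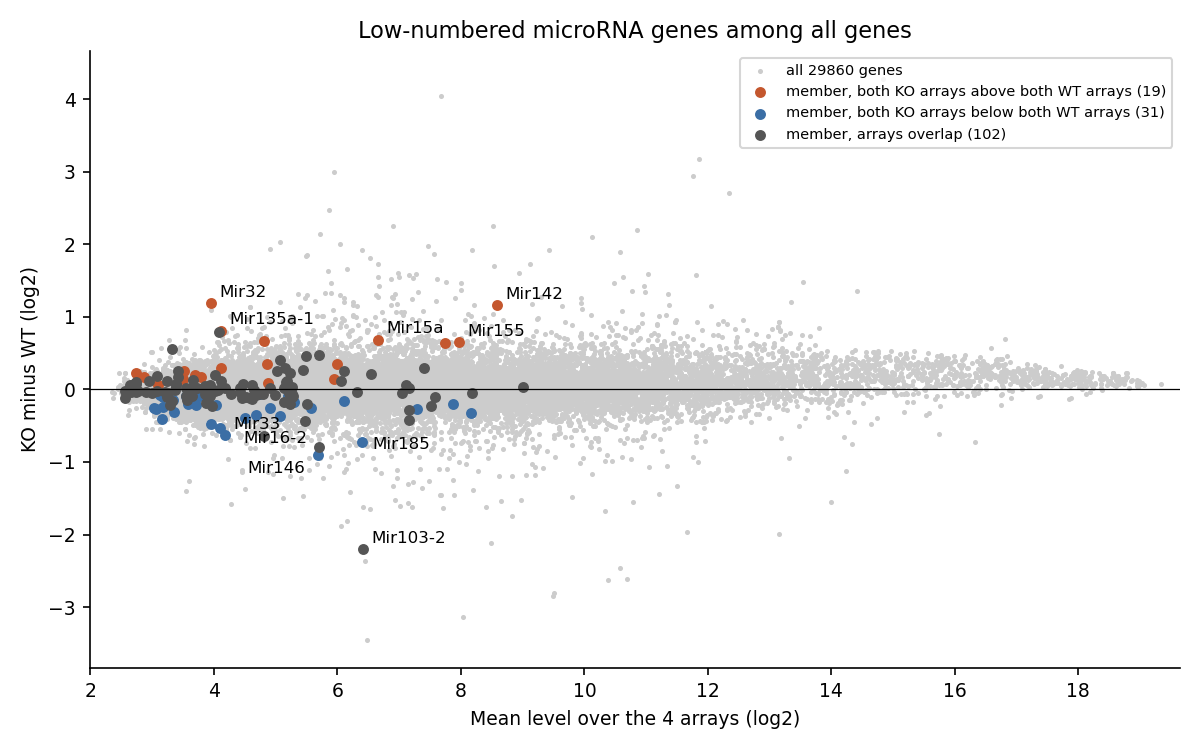
Difference between arrays labelled KO and WT (log2, y axis) against the mean level over the 4 arrays (log2, x axis) for all 29860 genes (grey) and the 152 low-numbered microRNA genes (coloured by whether the 2 arrays of each group overlap). Most members sit at the low end of the level range and close to 0. Mir32 and Mir142 stand above 1 and Mir103-2 at -2.205.

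Among microRNAs known from T cells, Mir142 and Mir155 were higher and Mir146 lower in both arrays labelled KO. Mir142 is transcribed in blood cell lineages, and mice without it have defective lymphocytes. It read 8.31 and 7.70 in WT replicates 1 and 3 and 9.21 and 9.12 in KO replicates 1 and 2. The groups did not overlap, and the difference was 1.16 (SE 0.23, adjusted p 0.288). Mir155, whose microRNA restrains the cytokine signalling inhibitor Socs1 and is induced in regulatory T cells by Foxp3, read 7.78 and 7.50 against 8.49 and 8.10. Its arrays labelled KO were again both the higher ones, with a difference of 0.655 (SE 0.19, adjusted p 0.382).

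Mir146, the RefSeq symbol of the miR-146a gene, moved the other way. Its microRNA dampens signalling to NF-kappaB. It read 6.46 and 5.81 in the arrays labelled WT and 5.52 and 4.95 in those labelled KO, so both KO arrays were the lower ones. The difference was -0.90 (SE 0.28, adjusted p 0.406). Its relative Mir146b, with the same seed GAGAACU, read between 3.71 and 3.76 in the 4 arrays and differed by 0.015 (SE 0.073).

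Markers of antibody-secreting cells were also higher in the arrays labelled KO. Jchain, which joins antibody units, read 6.62 and 6.47 against 7.66 and 7.49, a difference of 1.03 (SE 0.13), and Mzb1 differed by 0.395 (SE 0.097). Over the B and plasma cell list, 2 of 5 measured markers were higher and 3 lower, and the list mean was 5.56 and 5.65 in the arrays labelled WT and 5.78 and 5.84 in those labelled KO. Cd79a, Ms4a1 and Mzb1 lay below the median gene in every array. The part of other cells in the differences of Mir142, Mir155 and the other members was not tested.

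The Mir181 genes, whose microRNAs tune the sensitivity of the T cell receptor by acting on phosphatases, differed unequally although they share the seed ACAUUCA. Mir181b-2 read 4.61 and 4.35 in the arrays labelled WT and 4.95 and 5.34 in those labelled KO, a difference of 0.665 (SE 0.17, adjusted p 0.349). Its neighbour Mir181a-2 was higher in both arrays labelled KO as well, but by only 0.085 (SE 0.087). Mir181c and Mir181d, which lie together elsewhere in the genome, overlapped between the groups, with differences of 0.055 (SE 0.14) and -0.045 (SE 0.15). Aligned from the 5′ end, miR-181a and miR-181b match at 20 of 23 bases.

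Of the 32 microRNA genes listed for T cells and regulatory T cells, 22 were measured, 14 of them higher and 8 lower, with a median of 0.0575 and 0 past the adjusted threshold. At an unadjusted p under 0.05, Mir142, Mir155 and Mir181b-2 were higher and Mir146 and Mir10b lower. Of all genes, 6.45% were higher and 3.81% lower at that p. The groups did not overlap for 7 of the 22 upward and 2 downward, against 21.1% and 17.5% of all genes. Mir150, a regulator of Myb in mature lymphocytes, read 3.06 to 3.14 in the 4 arrays, below the median gene, and differed by 0.06 (SE 0.066). Mir29a and Mir29b-1, whose microRNAs limit the Th1 program, differed by 0.79 (SE 0.44) and 0.30 (SE 0.22). Mir29a read 3.99 and 3.40 against 5.11 and 3.86, so its groups overlapped and its difference rested on KO replicate 1, and without that array it was 0.165.

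Mir31, reported to act on Foxp3 messenger RNA in human cells, read 5.44 and 5.10 against 5.05 and 6.40. Its groups overlapped, and its difference of 0.455 (SE 0.44) became -0.22 without KO replicate 2. Mir183 was higher by 0.17 (SE 0.094), while its neighbours Mir182, known for acting on Foxo1 in activated helper T cells, and Mir96 differed by -0.125 (SE 0.12) and -0.045 (SE 0.10). Mir99a and Mir100, which target the kinase gene Mtor, differed by -0.03 (SE 0.070) and 0.015 (SE 0.091). Mir125b-1 and Mir125b-2 differed by -0.02 (SE 0.14) and -0.085 (SE 0.11), and the sign of Mir125b-1 turned on centring (0.005) and on quantile normalization (0.0013).

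**Figure D2:**
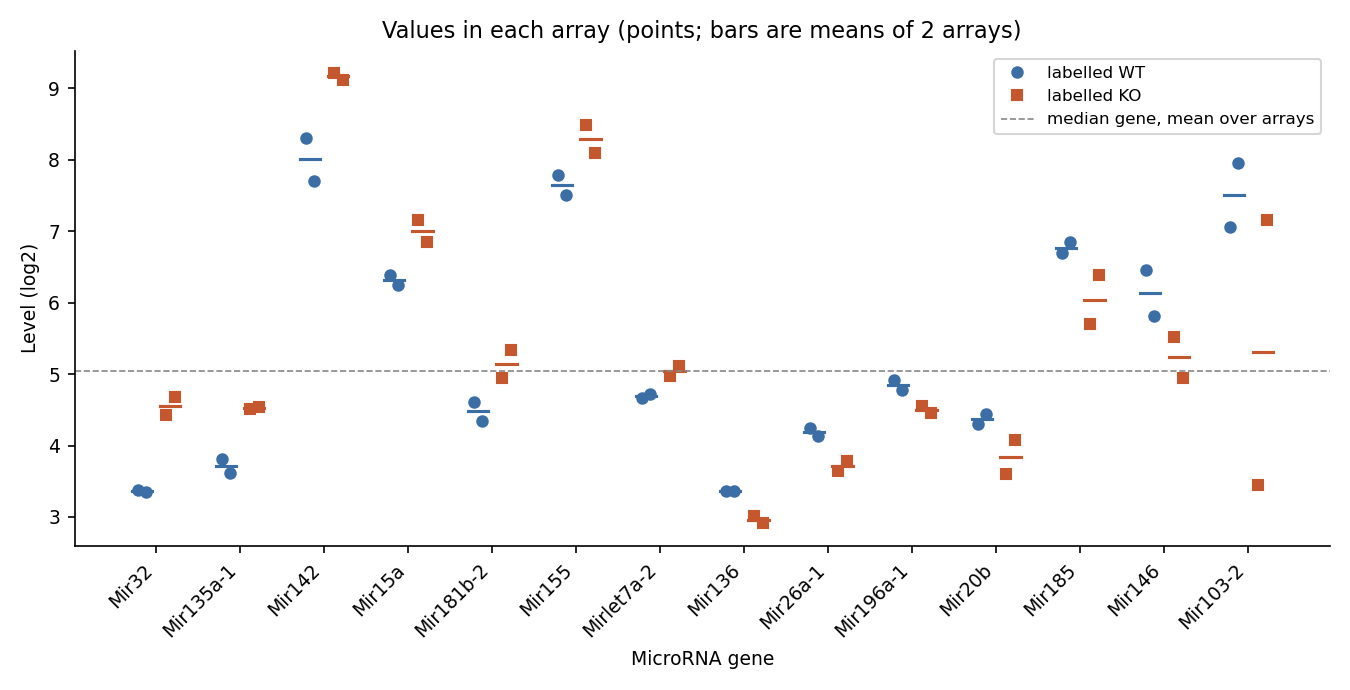
Level (log2, y axis) in each array for 14 low-numbered microRNA genes (x axis), with circles for the 2 arrays labelled WT, squares for the 2 labelled KO, a bar at each group mean and a dashed line at the median gene (5.04). The groups separate for 13 of the genes, and Mir103-2 shows KO replicate 1 at 3.45 against 7.06 to 7.96 in the other arrays.

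The largest positive difference with separate groups belonged to Mir32. It read 3.38 and 3.35 in the arrays labelled WT and 4.43 and 4.68 in those labelled KO, a difference of 1.19 (SE 0.11). Its adjusted p of 0.112 was the smallest of any member. All 4 values lay below the median gene. The mature miR-32 shares its seed with miR-92a and miR-92b, printed above, and matches miR-92a at 11 of 21 aligned bases. Those relatives did not follow it. Mir92-2, the X-linked miR-92a gene, read 5.98 and 5.41 against 5.56 and 4.96 and differed by -0.435 (SE 0.27), with overlapping groups, and Mir92b differed by -0.015 (SE 0.11).

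Mir135a-1 and Mir135a-2, which give the same mature miR-135a, were both higher in both arrays labelled KO. Mir135a-1 read 3.81 and 3.62 against 4.51 and 4.54, a difference of 0.81 (SE 0.096, adjusted p 0.173). Mir135a-2 read 3.91 and 4.02 against 4.21 and 4.31, a difference of 0.295 (SE 0.088, adjusted p 0.389). Both genes lay below the median gene in every array. Mir135b differed by -0.06 (SE 0.14).

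The microRNAs of Mir15a and of the Mir15b and Mir16-2 pair are known for holding back the cell cycle and Bcl2. Their differences had opposite signs, but only Mir15a had separate groups. Mir15a read 6.39 and 6.25 in the arrays labelled WT and 7.16 and 6.85 in those labelled KO, which put both KO arrays higher, by 0.685 (SE 0.15, adjusted p 0.306). Mir16-2 read 6.82 and 5.38 against 5.38 and 5.22, a difference of -0.80 (SE 0.46) that became -0.08 without WT replicate 1. Mir15b read 6.19 and 4.06 against 3.58 and 5.39, spread so widely within each group that its difference of -0.64 (SE 0.87) turned to 0.265 without KO replicate 1 and to 0.425 without WT replicate 1. Mature miR-15a and miR-15b match at 18 of 22 bases.

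Mir7-1, one of 3 genes for miR-7, read 7.76 and 7.10 against 8.30 and 7.84. Both KO arrays were the higher ones, by 0.64 (SE 0.28, adjusted p 0.520), while Mir7-2 differed by -0.065 (SE 0.11) and Mir7b by 0.04 (SE 0.18). Next among the higher members with separate groups were Mirlet7a-2, Mir27a and Mir135a-2. Mir27a read 5.97 and 5.67 against 6.25 and 6.08, a difference of 0.345 (SE 0.15). Mir124a-2, a neuronal microRNA gene that lay below the median gene in every array, differed by 0.25 (SE 0.091).

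Among members lower in both arrays labelled KO, Mir146 was followed by Mir185, Mir33 and Mir20b. Mir185 read 6.69 and 6.85 in the arrays labelled WT and 5.70 and 6.38 in those labelled KO, a difference of -0.73 (SE 0.24, adjusted p 0.417). Mir33, which lies within the sterol regulator gene Srebf2 and acts on cholesterol export, read 4.72 and 4.26 against 3.51 and 4.22. Its difference was -0.625 (SE 0.27, adjusted p 0.525), but the nearest values of the groups were 4.26 and 4.22.

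The 4 lower members with the smallest unadjusted p read below the median gene in every array. Mir136, from an imprinted microRNA region, read 3.37 in both arrays labelled WT and 3.01 and 2.91 in those labelled KO, a difference of -0.41 (SE 0.073, adjusted p 0.286). Mir26a-1, whose microRNA acts on the Polycomb methyltransferase gene Ezh2, read 4.25 and 4.14 against 3.65 and 3.78, a difference of -0.48 (SE 0.091, adjusted p 0.286). Mir105 differed by -0.255 (SE 0.072, adjusted p 0.372). The Hox-embedded Mir196a-1 read 4.92 and 4.78 against 4.55 and 4.45, a difference of -0.35 (SE 0.098, adjusted p 0.372).

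The largest difference of all members in size was that of Mir103-2, singled out after its values were seen. It read 7.06 and 7.96 in the arrays labelled WT and 3.45 and 7.16 in those labelled KO. The difference of -2.205 (SE 1.19, adjusted p 0.612) rested on KO replicate 1 alone, and without that array it was -0.35. Mir103-1 and Mir107, which share its seed, differed by -0.11 (SE 0.13) and 0.265 (SE 0.23).

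The Mir17 cluster drives proliferation of lymphocytes. Of the list of this cluster and its paralogs, 5 members were measured, all of them from the paralogs. All 5 were lower in the arrays labelled KO, 4 of them without overlap. At an unadjusted p under 0.05, 2 were lower, with 0 past the adjusted threshold. Of all genes, 17.5% were lower without overlap and 3.81% lower at that p. The median of these 5 was -0.395, beside 0.005 for all genes. Mir20b, Mir19b-2, Mir18b and Mir106b lay below the median gene in every array, where a value cannot be told from background. Mir20b read 4.30 and 4.44 against 3.60 and 4.08, a difference of -0.53 (SE 0.17, adjusted p 0.415). Mir19b-2 differed by -0.395 (SE 0.17) and Mir18b by -0.215 (SE 0.073). These and Mir92-2 are neighbours on the X chromosome and may come from 1 primary transcript, so they are not independent. Mir106b, at another locus, differed by -0.105 (SE 0.080). The other 9 listed members were not analysed here on a cluster of their own.

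Let-7 microRNAs accumulate as cells differentiate and act on growth genes such as Hmga2 and Lin28. Of 12 measured let-7 genes, Mir98 among them, 9 were higher and 3 lower in the KO group, with a median of 0.0475, and 0 passed the adjusted threshold. Mirlet7a-2 alone had separate groups, reading 4.66 and 4.72 against 4.97 and 5.12, a difference of 0.355 (SE 0.098, adjusted p 0.372). Of all genes, 21.1% were higher without overlap. Mirlet7a-1 and Mirlet7f-1 had differences of 0.475 (SE 0.29) and 0.405 (SE 0.36), which rested on KO replicate 1 and were 0.04 and -0.095 without it. The lower ones were Mirlet7b, Mirlet7c-2 and Mirlet7e, at -0.06 (SE 0.13), -0.115 (SE 0.14) and -0.075 (SE 0.13). Mirlet7c-1, Mirlet7d, Mirlet7f-2, Mirlet7g, Mirlet7i and Mir98 differed by 0.015 to 0.21, with overlapping groups.

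Some microRNAs are tied to Polycomb by earlier work. Of 12 genes reported to act on Bmi1 or Ezh2, 10 were measured, 4 higher and 6 lower, with a median of -0.085 and 0 past the adjusted threshold. Only Mir26a-1, given above, and Mir200b had groups that did not overlap, both lower in the arrays labelled KO. Of all genes, 17.5% were lower without overlap. Mir200b, an epithelial microRNA gene, differed by -0.26 (SE 0.11). Mir200a, Mir200c, Mir141, Mir203, Mir128-1, Mir128-2 and Mir26b differed by -0.105 to 0.12, and Mir101b, which acts on Ezh2, by -0.23 (SE 0.18). Mir26b matches Mir26a-1 at 19 of 21 mature bases and differed by 0.055 (SE 0.13).

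The 3 measured microRNA genes within Hox clusters, classical Polycomb regions, were lower in both arrays labelled KO, as were 17.5% of all genes. Besides Mir196a-1, Mir10b read 3.21 and 3.18 against 2.82 and 3.03, a difference of -0.27 (SE 0.093, adjusted p 0.430), and Mir196a-2 differed by -0.085 (SE 0.097). All readings of Mir196a-1 and Mir10b lay below the median gene. In the Mir34 family, p53 targets, Mir34a and Mir34b were lower in both arrays labelled KO, with differences of -0.145 (SE 0.084) and -0.155 (SE 0.12), and Mir34c differed by 0.015 (SE 0.20).

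Genes for microRNAs that belong to other tissues mostly read low, as did the members at large. Below the median gene in every array lay 94 of the 152 members and 2 of the 4 measured epithelial genes. Of the 7 measured muscle genes, 6 lay below the median gene in every array, and the seventh, Mir1b, overlapped between the groups (0.29, SE 0.42). Mir1a-1 was lower in both arrays labelled KO, at -0.245 (SE 0.081), and Mir1a-2, Mir133a-1, Mir133a-2, Mir208a and Mir208b differed by -0.15 to 0.075. The hepatocyte gene Mir122 read 4.49 to 4.73 and differed by 0.06 (SE 0.11). The neuronal Mir9-3 and Mir124a-3 differed by -0.09 (SE 0.071) and -0.01 (SE 0.14), the latter turning to 0.015 on centring and 0.0138 on quantile normalization. Mir126b, from the endothelial Egfl7 locus, differed by 0.18 (SE 0.13). Mir143, a smooth muscle gene, read above the median gene in every array (5.43 to 5.80) and was lower in both arrays labelled KO, at -0.255 (SE 0.11). From the early embryo cluster, Mir290b and Mir292b differed by 0.26 (SE 0.25) and -0.02 (SE 0.13), and Mir292b turned to 0.005 under both rescalings.

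The 10 members with the highest readings had means of 7.40 to 9.0, all above the median gene in every array. Readings of different clusters depend on their probes and are not an order of abundance. Besides Mir142, Mir155, Mir7-1, Mir181d and Mir29b-1, they were Mir30c-1, Mir194-2, Mir297a-3, Mir297c and Mir193b. Mir30c-1 read 8.81 to 9.16 with overlapping groups and differed by 0.03 (SE 0.17). Mir194-2 read 8.44 and 8.21 against 8.07 and 7.92, lower in both arrays labelled KO, at -0.33 (SE 0.15, adjusted p 0.533). Mir297a-3 was lower in both as well, at -0.195 (SE 0.14), while Mir297c and Mir193b overlapped, at -0.10 (SE 0.17) and -0.23 (SE 0.25).

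MicroRNA genes often lie close together and are then cut from one primary transcript. By RefSeq positions, 61 members fell into 27 groups of neighbours within 10 kb on 1 strand, or with no strand given for 16 members. All members differed in 1 direction in 16 of the 27 groups, 18 after centring and 17 after quantile normalization. Every member had separate arrays in only 2 groups, Mir181a-2 with Mir181b-2 (higher) and Mir221 with Mir222 (lower). Taken singly, 21.1% of all genes were higher and 17.5% lower without overlap. Whether neighbours differ alike more often than other genes was not tested. Mir221 and Mir222, known for acting on the cell cycle inhibitor gene Cdkn1b, differed by -0.36 (SE 0.19) and -0.195 (SE 0.072). Mir23a, Mir27a and Mir24-2 differed by 0.025 (SE 0.43), 0.345 and 0.26 (SE 0.28). The neighbours Mir30c-1 and Mir30e differed by 0.03 and -0.425, where Mir30e read 7.66 and 7.07 against 7.97 and 5.91.

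**Figure D3:**
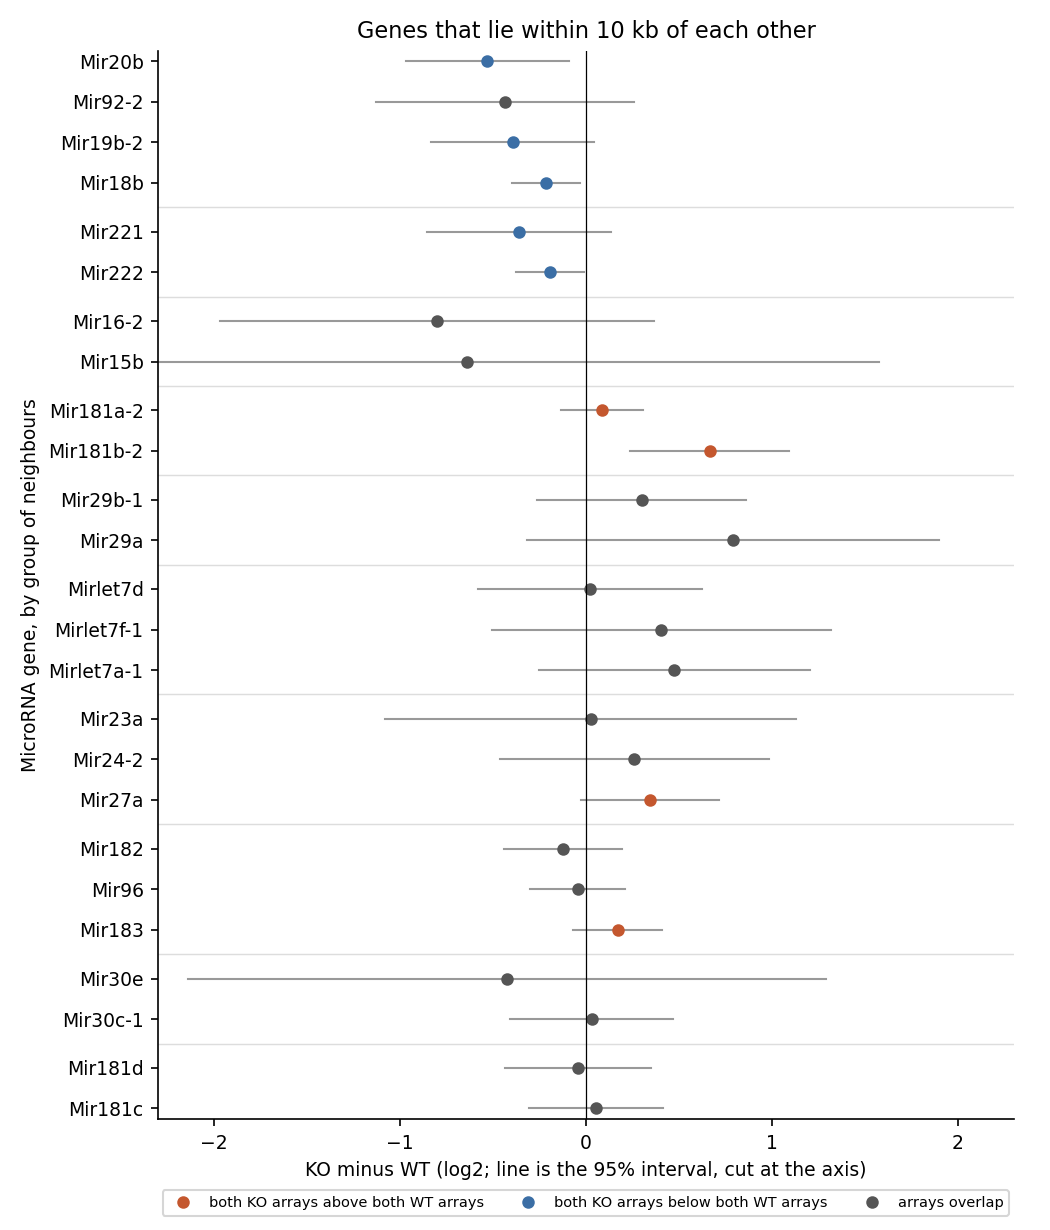
Difference, KO minus WT (log2, x axis), with its 95% interval, for members of 10 groups of neighbouring microRNA genes (y axis, groups parted by lines). The 4 X-linked genes from Mir18b to Mir92-2 all lie below 0, Mir181b-2 lies above its neighbour Mir181a-2, and the intervals of Mir15b, Mir23a and Mir30e are wide.

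Of the members, 95 lie inside another annotated gene, and 65 of them are known to lie on its strand. The others lie on the opposite strand or have a strand that is not given, as Mir15b and Mir16-2 within Smc4. In 42 pairs known to share a strand the host was measured. Member and host differed with the same sign in 18 of the 42 (15 after centring and 14 after quantile normalization). Srebf2 was higher by 0.235 (SE 0.16) where Mir33 had -0.625. Tmem245 differed by -0.165 (SE 0.17) where Mir32 had 1.19. Hnrnpk differed by -0.025 (SE 0.077) where Mir7-1 had 0.64, and Tango2 by -0.12 (SE 0.12) where Mir185 had -0.73. Pank2, which holds Mir103-2, read 12.33 to 12.45 in all 4 arrays, and KO replicate 1 was not set apart there. Pank1 was higher in both arrays labelled KO by 0.425 (SE 0.14), and Mir107 within it, whose groups overlapped, differed by 0.265.

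A mature sequence was at hand for 135 members, and 82 of them fell into 42 families that share a seed. Each mature strand was grouped by its own seed. The same genes can therefore form more than 1 family, as Mir103-1, Mir103-2 and Mir107 do. A gene was counted only where the sequence of that strand was at hand. The members of 24 families differed in both directions and those of 18 in 1 direction, and in 5 families all arrays separated in 1 direction. Of all genes, 21.1% were higher and 17.5% lower without overlap. Among the 5 were Mir34a with Mir34b, where Mir34c was not counted, and Mir135a-1 with Mir135a-2, where Mir135b was not counted. The groups of Mir34c and Mir135b overlapped. Of the 11 let-7 genes, Mir98 among them, with a sequence at hand for the strand with the seed GAGGUAG, 8 were higher and 3 lower. Mirlet7a-2, given above, was not counted there. The Mir148 family was split with no overlap on either side: Mir148a was higher by 0.22 (SE 0.072), whereas Mir148b and Mir152 were lower, at -0.21 (SE 0.096) and -0.075 (SE 0.070).

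**Figure D4:**
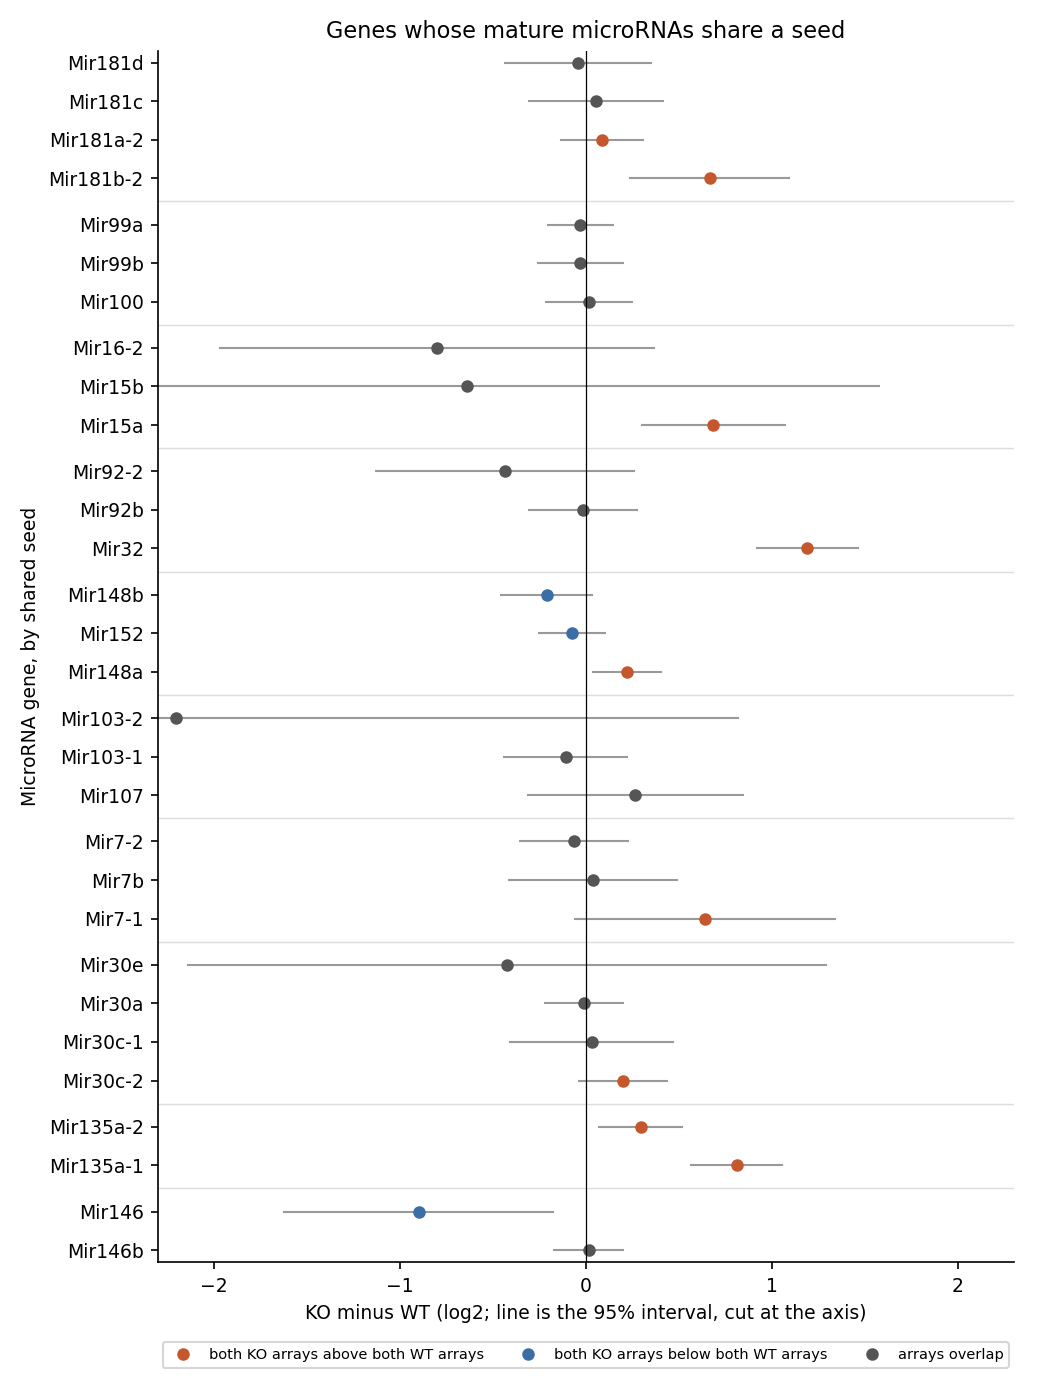
Difference, KO minus WT (log2, x axis), with its 95% interval, for microRNA genes whose mature products share a seed (y axis, families of 3 or 4 members and the Mir135a and Mir146 families, parted by lines). Mir32, Mir15a, Mir181b-2 and Mir7-1 each stand above the other members of their family, and Mir146 stands below Mir146b.

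The genes that make and use microRNAs differed little. Of 29 listed genes 22 were measured, 10 higher and 12 lower, with a median of -0.01 and 0 at an unadjusted p under 0.05. Those with separate groups were 2 higher and 7 lower, beside 21.1% and 17.5% of all genes. Ago2, the Argonaute with slicing activity, read 12.95 and 12.91 against 12.76 and 12.66, a difference of -0.22 (SE 0.10). The exporter Xpo5 differed by -0.26 (SE 0.13), the uridylyltransferase Tut4, which tags let-7 precursors, by -0.27 (SE 0.15), and Dicer1 by -0.175 (SE 0.13). Drosha overlapped between the groups, at 0.035 (SE 0.15). Lin28a and Lin28b, which block let-7 processing, lay below the median gene in every array and differed by 0.03 (SE 0.092) and -0.065 (SE 0.11).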

How the data were processed

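Arrays measured gene expression in 2 samples labelled WT and 2 labelled KO. The authors deposited log2 values for 65528 transcript clusters, made with RMA and Transcriptome Analysis Console per the submitters' processing notes. The genome build is not given in the sources used here, nor is the background correction. All 4 columns were used and 0 left out. The platform annotation gave 1 gene symbol for 30390 clusters and several for 2127, and does not list the other 33011. RefSeq tables of GRCm38.p6 updated 1126 symbols, 1 of them a member's (Mir122), and gave neighbours, hosts and mature sequences. For each gene the cluster with the highest mean was kept. With 2 arrays a group, the number of arrays limits the precision.

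KO minus WT was tested on the log2 scale (R 4.3.3, limma 3.58.1: lmFit, moderated by eBayes along an intensity trend; two-sided p). Adjustment was by Benjamini-Hochberg over 29860 genes, with a threshold of 0.05 and 95% intervals. An exact permutation test of 2 against 2 arrays cannot give a p below 0.333. The procedure was also run on simulated data in which the spreads of the genes were shuffled among them. Those data lack the link between level and spread, so they do not test the intensity trend. Alternatives were median-centring, quantile normalization, a minimum mean of 5.04, all clusters, eBayes without trend or with robust settings, and leaving out each array.

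Members and lists were chosen with earlier results of these data known. Named are the 10 members of highest mean, the 10 largest differences each way among members without overlap, the 5 smallest p each way and all measured members of the lists, 86 in all. Other members named were chosen after their values were seen.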

Additional observations from a re-analysis of the deposited data

How the results depend on the processing

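No member passed an adjusted p under 0.05 under any of the 10 alternatives in limma. The smallest adjusted p of any member was 0.1042 (Mir32) after centring, 0.1266 after quantile normalization, 0.1672 (Mir142) among brighter features, 0.2289 over all clusters, 0.1559 without an intensity trend, 0.1273 with robust settings and 0.5395 to 0.7955 without 1 array. No paired analysis was possible because the groups share only 1 replicate number.

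Among the 50 members bright enough for the filter, 3 were higher and 2 lower at an unadjusted p under 0.05. Of all 14938 features in that test, 10.4% were higher and 4.04% lower at that p, and fewer members enter there by construction. Of the 50, 6 (12%) did not overlap upward and 10 (20%) downward. The share of all bright features without overlap was not computed. Without 1 array, 8 to 13 members were higher and 5 to 13 lower at an unadjusted p under 0.05 (7 lower without WT replicate 1, 5 without KO replicate 1), the median lay between -0.05 and -0.0125, and 39 to 52 did not overlap upward and 52 to 60 downward, since fewer arrays overlap less often. Each fit without 1 array left only 1 array in a group. The counts from those fits are therefore not set against shares of all genes. Whether the members differ from all genes there cannot be read from them, and no conclusion is drawn. Rescaling turned the sign of 3 of the 86 named members: Mir125b-1 (0.005 centred, 0.0013 quantile), Mir292b (0.005 and 0.005) and Mir124a-3 (0.015 and 0.0138).

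Leaving out 1 array turned the sign of 85 of the 152 members and 43 of the 86 named.
The lowest and highest differences without 1 array were Mir15b -1.705 to 0.425, Mir23a -0.655 to 0.705, Mir193b -0.58 to 0.12, Mir101b -0.475 to 0.015, Mir1a-2 -0.405 to 0.105, Mir200a -0.4 to 0.22, Mir1b -0.375 to 0.955, Mirlet7f-2 -0.335 to 0.375 and Mir297c -0.305 to 0.105. Next came Mirlet7d -0.305 to 0.345, Mir182 -0.3 to 0.05, Mirlet7c-2 -0.29 to 0.06, Mir128-1 -0.255 to 0.495, Mir203 -0.25 to 0.04, Mirlet7e -0.24 to 0.09, Mir34c -0.23 to 0.26, Mir31 -0.22 to 1.13 and Mir125b-2 -0.21 to 0.04. Then came Mirlet7b -0.21 to 0.09, Mir133a-1 -0.205 to 0.105, Mir181d -0.2 to 0.11, Mirlet7c-1 -0.2 to 0.35, Mir124a-3 -0.18 to 0.16, Mir125b-1 -0.175 to 0.135, Mirlet7g -0.175 to 0.205, Mir292b -0.17 to 0.13 and Mir24-2 -0.165 to 0.685. These were followed by Mir128-2 -0.165 to 0.385, Mir141 -0.165 to 0.005, Mir200c -0.16 to 0.36, Mir133a-2 -0.16 to 0.07, Mir30c-1 -0.145 to 0.205, Mir96 -0.135 to 0.045, Mir98 -0.12 to 0.54, Mir181c -0.115 to 0.225 and Mirlet7f-1 -0.095 to 0.905. Last in this order, which follows the lowest value, were Mirlet7i -0.09 to 0.35, Mir100 -0.08 to 0.11, Mir99a -0.08 to 0.02, Mir290b -0.05 to 0.57, Mir26b -0.04 to 0.15, Mir122 -0.035 to 0.155 and Mir208a -0.005 to 0.155.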
